A study of Homo sapiens with 6 samples.

Results

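The 41 genes described here encode the glucose transporters and enzymes of glycolysis, the lactate and pyruvate enzymes next to it, and a set of genes switched on when oxygen is short. They were chosen by gene symbol: every probe set that the annotation of the Affymetrix U133 Plus 2.0 array gives exactly 1 symbol, and that symbol among these, was taken. Of the 41 genes, 38 had such a probe set, 93 probe sets in all among the 54675 on the array. SLC16A1, SLC16A3 and CA9 had none and were not analysed here. Where a gene had several, its brightest probe set on average represented it, and all 38 reached the level required for testing, a mean log2 value of 5.11, as did 12958 of the 19775 genes with a symbol of their own.

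The values come from 2 human osteosarcoma cell lines, KHOS, a derivative of the HOS line carrying a viral Kirsten ras oncogene, and U-2OS. Each line had 3 arrays, so 6 arrays were compared: KHOS with the pEP-miR-1 vector, KHOS with the pEP-miR-Null vector, KHOS control, U-2OS with pEP-miR-1, U-2OS with pEP-miR-Null, and U-2OS control. The vectors were transfected with Lipofectamine LTX and Plus Reagent, and RNA was taken after 48 hours. No vector is named for the controls, and whether they were mock transfected is not given in the sources at hand. Each array held RNA pooled from 3 flasks, with 1 array per line and treatment. P-values therefore measure the spread between pooled arrays, including unequal responses of KHOS and U-2OS to a treatment, and 6 arrays limit the precision. Because these are bulk RNA values on a per-array scale, fewer cells carrying a transcript and less of it per cell cannot be told apart.

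Glycolysis splits glucose into pyruvate in the cytosol and yields ATP without oxygen, and many tumour cells run it to lactate even where oxygen is present. When oxygen falls, the prolyl hydroxylases of the EGLN family no longer mark the alpha subunits of hypoxia-inducible factor (HIF) for destruction, and the factor accumulates. It then binds a short DNA core in the promoters and enhancers of glycolytic, angiogenic and pH-regulating genes and raises their transcription. The tested microRNA, miR-1, is a heart and skeletal muscle microRNA that finds its target messages through its seed. Its mature sequence, from RefSeq (GRCh38.p14), lies at chr20:62554351-62554372 (plus strand) and chr18:21829015-21829036 (minus strand) and is shown because it is the only difference the design intends between the vectors, with the seed, bases 2 to 8, in capitals.
hsa-miR-1-3p: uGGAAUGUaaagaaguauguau

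Array medians were 4.98 to 5.02 in KHOS and 5.07 to 5.15 in U-2OS, and arrays correlated at 0.978 to 0.996 within a line and at 0.910 to 0.937 between lines. The 28S ribosomal RNA probe set and the mean of 18 spike-in control probe sets lay above control in every vector array, and the spike-in means were also apart between the lines. The 28S values were 14.49 with miR-1, 14.07 with miR-null and 13.68 in the control for KHOS, against 14.86, 14.58 and 13.79 for U-2OS. The spike-in means were 9.93, 10.13 and 9.76 for KHOS in the same order, against 11.65, 11.33 and 10.81 for U-2OS. The difference between the 3′ and 5′ control probe sets of ACTB, a sign of RNA quality, was 2.90, 2.89 and 2.68 in KHOS, against 2.49, 2.64 and 2.40 in U-2OS. That of GAPDH was 0.53, 0.59 and 0.55 in KHOS, against 0.46, 0.48 and 0.42 in U-2OS, so every KHOS array was above every U-2OS array for both. The part of these measures in the results was not tested. Of the markers of mesenchymal and bone-forming cells, VIM, SPARC and COL1A1 lay at 10.07 or above on all 6 arrays, while COL1A2 and ALPL were below the level for testing. RUNX2, the osteoblast transcription factor, lay at 8.98 to 9.85 in KHOS and at 4.23 to 6.74 in U-2OS. The epithelial gene EPCAM lay at 8.43 to 8.70 in KHOS and at 5.49 to 5.96 in U-2OS, while CDH1 and KRT14 were below the level for testing. Of the blood markers CD3E lay at 5.07 to 5.21 in KHOS and at 5.26 to 5.36 in U-2OS, and PTPRC was below that level. Of the endothelial markers PECAM1 lay at 5.69 to 6.10 in KHOS and at 5.69 to 6.54 in U-2OS, and CDH5 and VWF were below it.

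The lines differed in which of the glycolytic and hypoxia genes were at the higher level. In KHOS the glucose transporter SLC2A1, the phosphofructokinase PFKP, the growth factor VEGFA, the peptide hormone ADM and the mitophagy gene BNIP3 were higher, by 1.91-fold to 4.39-fold. In U-2OS the transporter SLC2A3, the enolase ENO2, the carbonic anhydrase CA12 and the collagen hydroxylase P4HA2 were higher, and KHOS lay 6.55-fold to 9.16-fold below it. In all, 7 of the 38 genes were higher and 14 lower in KHOS by limma at a Benjamini-Hochberg adjusted p below 0.05, while 54.8% of all genes tested passed, 30.3% higher and 24.5% lower. The 14 include PFKFB2, which reached the level for testing only through its U-2OS arrays, so its difference is not read as a call. The share of members that passed was thus near that of all genes. Their median difference was -0.23 (log2, KHOS minus U-2OS), beside -0.0020 over all genes. The 3 KHOS values and the 3 U-2OS values did not overlap for 27 of the 38 genes, as for 64.8% of all genes. Among the 24 glycolysis genes 2 were higher and 8 lower, with PFKFB2 counted in the 8. Among the 14 hypoxia-induced and HIF genes 5 were higher and 6 lower. A further quantile normalization shifted the median of all genes to -0.17 and gave 6 members higher and 19 lower, and centring each array on its median shifted it to 0.12 and gave 9 and 11. Over all genes the split was 3928 higher and 3175 lower as deposited, 3113 and 4188 after quantile normalization, and 4360 and 2306 after centring.

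**Figure D1:**
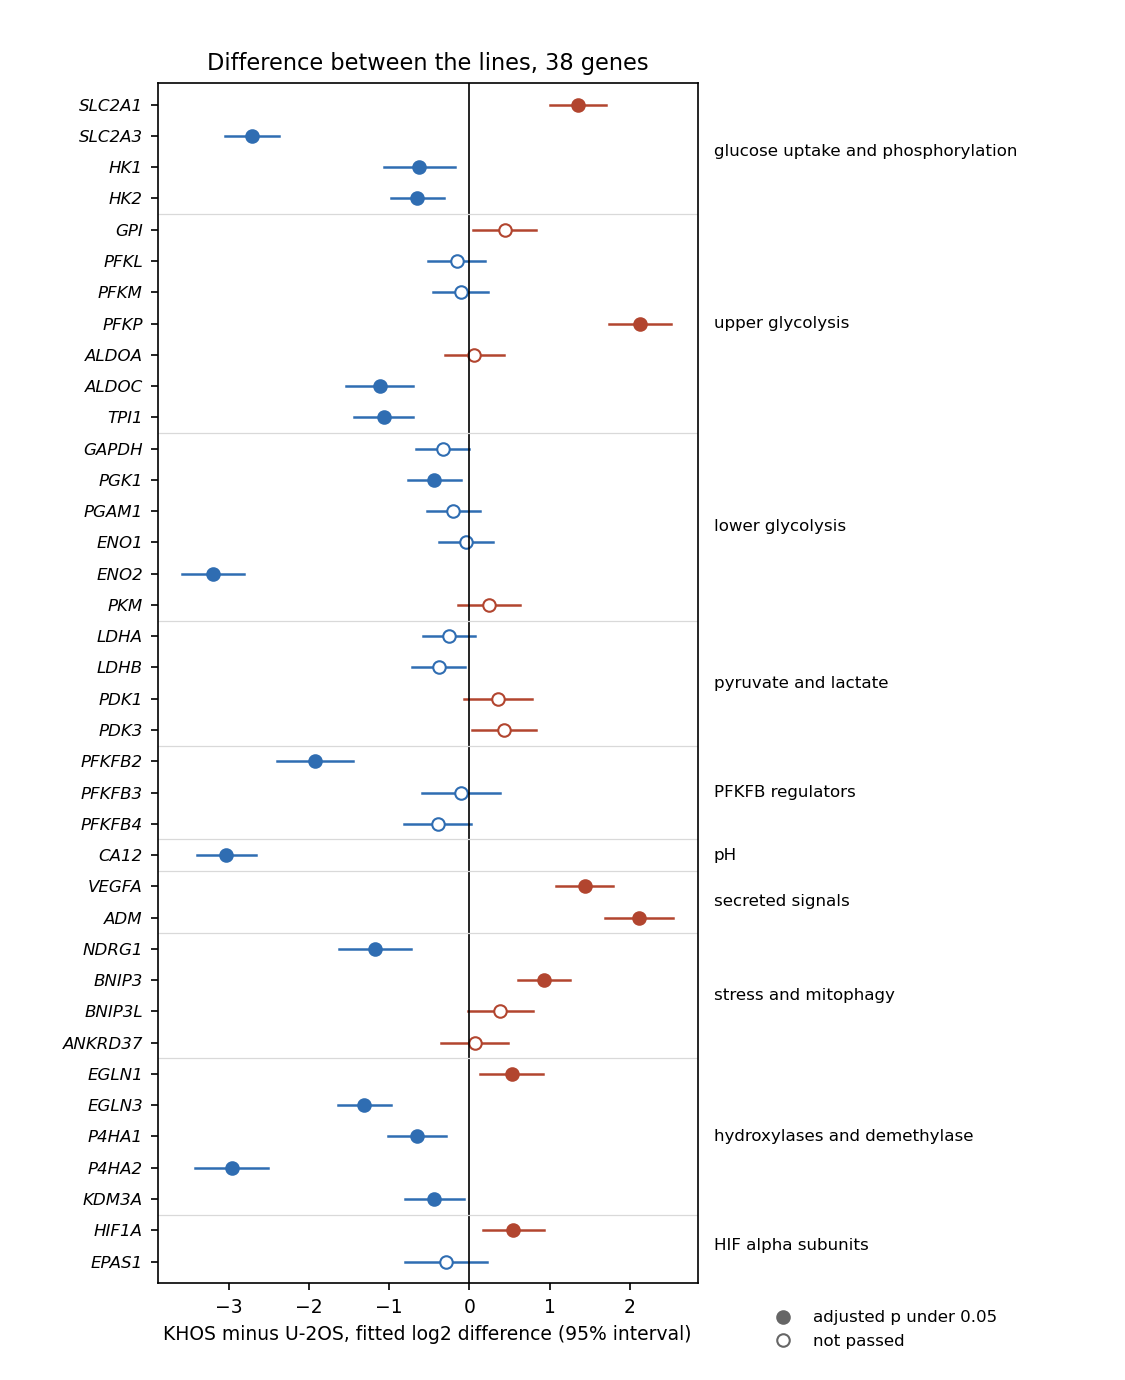
Fitted log2 difference, KHOS minus U-2OS, of the 38 genes (x axis), with 95% intervals from limma over all 6 arrays and filled points for genes past the adjusted threshold. PFKP at 2.13 and ADM at 2.11 stand farthest to the right, and ENO2 at -3.19, CA12 at -3.03 and P4HA2 at -2.97 farthest to the left.

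The transcripts of the glucose transporters divided between the lines. SLC2A1 encodes GLUT1, the basal glucose transporter of most cells, and SLC2A3 encodes GLUT3, a transporter of high affinity best known from neurons. SLC2A1 read 8.92 with miR-1, 8.98 with miR-null and 9.36 in the control of KHOS, against 7.62, 7.75 and 7.82 in U-2OS. SLC2A3 read 8.08, 8.28 and 7.61 in KHOS, against 10.83, 11.07 and 10.21 in U-2OS. Every KHOS array was above every U-2OS array for SLC2A1 and below every one for SLC2A3. SLC2A1 differed by 1.36 ± 0.14 (log2, SE, adjusted p = 0.000577) and SLC2A3 by -2.71 ± 0.14 (adjusted p = 3.14e-05). The 3 probe sets of SLC2A3 lay between -2.71 and -2.02. The hexokinases, which trap glucose as glucose 6-phosphate, were lower in KHOS, HK1 with a difference of -0.62 ± 0.18 (adjusted p = 0.028) and HK2 with -0.65 ± 0.14 (adjusted p = 0.00823). HK1 read 10.59, 10.68 and 11.18 in KHOS against 11.53, 11.42 and 11.38 in U-2OS, and HK2 read 10.01, 10.03 and 9.54 against 10.65, 10.63 and 10.23. Another probe set of HK2 above the level for testing went the other way, at 0.40, so its call rests on the probe set with the highest mean.

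In upper glycolysis the platelet-type phosphofructokinase stood apart. Phosphofructokinase commits fructose 6-phosphate to glycolysis and has a muscle (PFKM), a liver (PFKL) and a platelet (PFKP) form. PFKP read 10.80, 10.97 and 10.95 in KHOS, against 8.63, 8.59 and 9.10 in U-2OS, a difference of 2.13 ± 0.16 (4.39-fold, adjusted p = 0.000153). The ranges of the lines were far apart, whatever the treatment. The other forms did not pass, PFKL at -0.16 with a 95% interval of -0.51 to 0.20 and PFKM at -0.11 with an interval of -0.45 to 0.23. Aldolase, which cleaves the phosphorylated hexose, had a difference of 0.06 ± 0.15 for the common form ALDOA and of -1.12 ± 0.17 (adjusted p = 0.00243) for ALDOC, the brain form. ALDOC read 6.20, 6.97 and 6.78 in KHOS, against 7.62, 7.73 and 7.96 in U-2OS. Triosephosphate isomerase, TPI1, read 12.11, 12.41 and 12.57 in KHOS, against 13.42, 13.32 and 13.55 in U-2OS. It was lower in KHOS, with a difference of -1.07 ± 0.15 (adjusted p = 0.00177 by limma). Its 3 probe sets ran from -1.07 to -0.24. GPI, which converts glucose 6-phosphate to fructose 6-phosphate, differed by 0.44 ± 0.16 and did not pass (adjusted p = 0.0598).

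In lower glycolysis, ENO2 showed the widest gap among the probe sets that represent the 38 genes. ENO2 is the neuronal form of enolase, the enzyme that makes phosphoenolpyruvate, and ENO1 is the form of most tissues. ENO2 read 6.99, 7.35 and 6.85 in KHOS, against 10.50, 10.43 and 9.84 in U-2OS. The KHOS arrays were all far below the U-2OS arrays, with a difference of -3.19 ± 0.16 (9.16-fold, adjusted p = 3.00e-05), while ENO1 differed by -0.04 with a 95% interval of -0.38 to 0.29. PGK1, which makes the first ATP of the pathway, read 13.07, 13.08 and 13.27 in KHOS, against 13.47, 13.55 and 13.70 in U-2OS, and was lower in KHOS, with a difference of -0.44 ± 0.14 (adjusted p = 0.0338). Its probe sets ranged from -0.78 to 0.00. GAPDH (-0.33), PGAM1 (-0.20) and pyruvate kinase PKM (0.24) did not pass. PKM read 9.56, 10.01 and 9.92 in KHOS, against 9.46, 9.45 and 9.85 in U-2OS, with overlapping lines. GAPDH and PGK1 read 13.07 or above on every array, as did ALDOA, PGAM1, ENO1, LDHA and LDHB. Values so near the top of the scale can understate a difference. None of the 4 genes of pyruvate and lactate passed: LDHA and LDHB, the subunits of lactate dehydrogenase, differed by -0.25 and -0.38, and PDK1 and PDK3, kinases that shut off pyruvate dehydrogenase, by 0.36 and 0.43. LDHB read 13.65, 13.69 and 13.76 in KHOS, against 13.98, 14.08 and 14.19 in U-2OS, so its lines did not overlap although it missed the threshold (adjusted p = 0.0513). PDK1 had probe sets of both signs, from -0.63 to 0.36, as did PDK3, from -0.25 to 0.53, and PKM, from -0.20 to 0.24.

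Of the PFKFB enzymes, which set the level of the phosphofructokinase activator fructose 2,6-bisphosphate, PFKFB2 was near the floor of the scale in KHOS. It read 4.71, 4.54 and 4.81 in KHOS, against 6.16, 6.57 and 7.10 in U-2OS. All 3 KHOS values lay below the level of 5.11 used for testing, so only the U-2OS arrays brought the gene in, and the values are given without a test. PFKFB3, the form best known from tumour cells, differed by -0.10 ± 0.20 and PFKFB4 by -0.39 ± 0.17, and neither passed. PFKFB4 read 7.70, 7.65 and 7.497 in KHOS, against 8.01, 7.76 and 8.26 in U-2OS. CA12, a membrane carbonic anhydrase that hydrates carbon dioxide outside the cell, read 6.12, 6.18 and 6.49 in KHOS, against 9.004, 9.11 and 9.76 in U-2OS. The lines did not overlap, and the difference was -3.03 ± 0.15 (8.16-fold, adjusted p = 2.87e-05). Its 5 probe sets above the level for testing gave -4.10 to -0.77. Those at -4.10 and -2.48 lay below 5.11 on every KHOS array, so only U-2OS brought them in. Their sign is therefore not read as support. The others, at -3.53, -3.03 and -0.77, shared the sign but not the size.

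**Figure D2:**
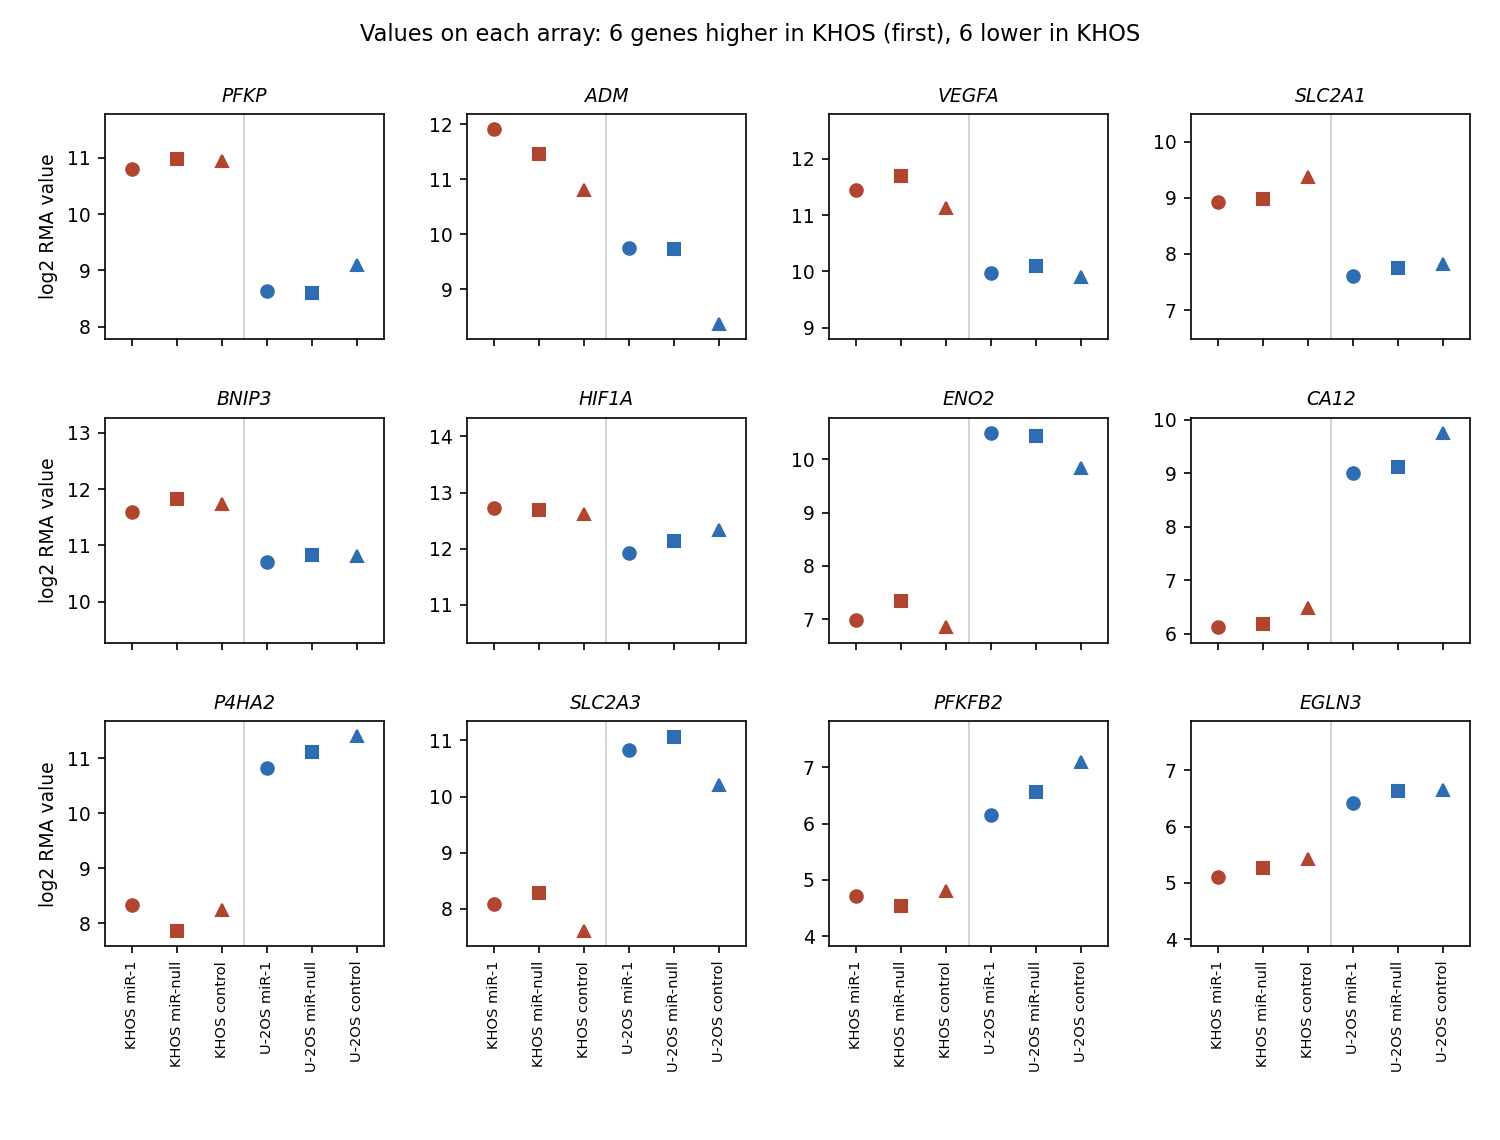
Deposited log2 values (y axis) on each of the 6 arrays, KHOS left and U-2OS right of the grey line, each in the order miR-1, miR-null, control, for 6 genes higher and 6 genes lower in KHOS; each panel has its own y range. For ADM, VEGFA, ENO2 and SLC2A3 the control is also the lowest array of its line, and for SLC2A1, CA12, EGLN3 and PFKFB2 it is the highest.

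The secreted signals were both higher in KHOS. VEGFA, which drives blood vessel growth, read 11.45, 11.70 and 11.13 in KHOS, against 9.98, 10.10 and 9.90 in U-2OS, a difference of 1.44 ± 0.15 (2.71-fold, adjusted p = 0.000504). Its 4 probe sets ranged from 0.19 to 1.44. ADM, the precursor of the vasodilator adrenomedullin, read 11.91, 11.47 and 10.81 in KHOS, against 9.75, 9.73 and 8.37 in U-2OS, a difference of 2.11 ± 0.18 (4.33-fold, adjusted p = 0.000225). In neither gene did the lines overlap. Among the stress genes, BNIP3, a mitophagy receptor, read 11.58, 11.83 and 11.73 in KHOS, against 10.71, 10.83 and 10.81 in U-2OS, and was higher by 0.93 ± 0.14 (adjusted p = 0.00198). NDRG1, a stress-response gene known as a hypoxia target, read 10.18, 10.60 and 9.77 in KHOS, against 11.75, 11.76 and 10.56 in U-2OS. The KHOS miR-null array was above the U-2OS control, so the lines overlapped, yet the fitted difference was -1.17 ± 0.18 (adjusted p = 0.00268). A second probe set of BNIP3 gave a smaller difference, 0.26. BNIP3L (0.39) and ANKRD37 (0.07) did not pass, and BNIP3L also had a probe set at -0.47. Of the 19 members with more than 1 probe set above the level for testing, 8 had both signs between the lines.

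The oxygen-using hydroxylases split. P4HA2, a subunit of the collagen prolyl hydroxylase, read 8.33, 7.86 and 8.24 in KHOS, against 10.82, 11.11 and 11.40 in U-2OS, a difference of -2.97 ± 0.19 (7.81-fold, adjusted p = 7.94e-05). P4HA1, another catalytic subunit, read 9.91, 10.01 and 10.08 in KHOS, against 10.37, 10.67 and 10.92 in U-2OS, a difference of -0.65 ± 0.15 (adjusted p = 0.011). For both subunits every KHOS array was below every U-2OS array. EGLN3, a HIF prolyl hydroxylase that HIF itself induces, read 5.10, 5.26 and 5.42 in KHOS, against 6.41, 6.64 and 6.65 in U-2OS, a difference of -1.31 ± 0.14 (adjusted p = 0.000533). EGLN1, the main oxygen sensor of the HIF pathway, read 10.36, 10.19 and 10.43 in KHOS, against 9.51, 9.74 and 10.14 in U-2OS. It was higher in KHOS by 0.53 ± 0.16 (adjusted p = 0.0344), but its 3 probe sets ran from -1.03 to 0.53. KDM3A, a histone demethylase, passed narrowly at -0.44 ± 0.15 (adjusted p = 0.0481) with overlapping lines. HIF1A, the alpha subunit of HIF-1, read 12.73, 12.69 and 12.62 in KHOS, against 11.93, 12.13 and 12.34 in U-2OS, and was higher by 0.55 ± 0.16 (adjusted p = 0.0266). EPAS1, the alpha subunit of HIF-2, differed by -0.30 with a 95% interval of -0.81 to 0.22. Of the 21 calls between the lines, 10 had a value under all 13 alternatives run for this comparison and were kept under all. The calls of SLC2A1 and EGLN3 were kept wherever they were tested but lacked a value under 1. Those of EGLN1, HIF1A, HK1, HK2, KDM3A, P4HA1, PGK1 and TPI1 were each lost under at least 1. The 21 also count PFKFB2, whose difference is not read as a call.

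Other genes of the same pathways were also called in both directions. Of 43 other glycolysis and pyruvate genes 28 were tested, and 10 were higher and 6 lower in KHOS, with a median of 0.24, beside 54.8% of all genes called and a median of -0.0020. PDP1, the phosphatase that reactivates pyruvate dehydrogenase, differed by 2.72 ± 0.28, BSG, the chaperone of lactate transporters, by 1.88 ± 0.17, BPGM by 1.79 ± 0.18 and the mitochondrial pyruvate carrier subunit MPC1 by 1.25 ± 0.15. TIGAR, a p53-induced phosphatase, by -1.71 ± 0.14, and ENO3 by -1.08 ± 0.23, LDHC by -0.88 ± 0.18 and PDK2 by -0.61 ± 0.16. HKDC1, a hexokinase-like gene, read 4.90, 5.07 and 5.08 in KHOS, against 8.43, 8.44 and 8.43 in U-2OS, and the transporter SLC2A10 read 6.19, 7.004 and 6.44 in KHOS, against 3.73, 4.15 and 4.90 in U-2OS. Both reached the level for testing only through the brighter line, so these are values without a test. Of 38 other HIF targets 36 were tested, with 11 higher and 14 lower and a median of -0.23. Upward, IGFBP3, a binding protein of insulin-like growth factors, differed by 2.97 ± 0.15 and the stanniocalcin STC1 by 2.91 ± 0.14. STC2, another stanniocalcin, lay at 9.03 to 10.10 in KHOS and at 4.38 to 5.09 in U-2OS, and reached the level for testing only through KHOS. Of the genes called, RORA and PPFIA4 reached it only through U-2OS. PPP1R3C, a glycogen-targeting phosphatase subunit, and the carbonic anhydrase CA2 led downward at -3.67 ± 0.19 and -2.83 ± 0.29. Of 16 genes listed as HIF pathway regulators 13 were tested. ARNT, the partner of the HIF alpha subunits, was higher by 1.36 ± 0.17 (adjusted p = 0.000937 by limma) and EP300 by 0.61 ± 0.19. The list also held TCEA1, a general transcription elongation factor that is not a HIF regulator. It differed by 0.49 ± 0.14, which turned to -0.14 with its most specific probe set. VHL, the ubiquitin ligase subunit that removes HIF alpha, was lower (-0.53 ± 0.14, adjusted p = 0.0178), as was SIAH2 (-0.62 ± 0.14).

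Both kinds of vector array were then set against the control array of their line. No member passed: 0 of 38, while 0.478% of all genes passed, 0.355% higher and 0.123% lower. Over all genes that was 62 by limma, with 2587 at an unadjusted p below 0.05. In all 4 vector arrays 8 genes lay above the control of their line, where 14.2% of all genes did, and 15 lay below it, where 25.1% did. With a 1.2-fold margin in all 4, the counts were 5 above (NDRG1, ADM, HK2, SLC2A3 and KDM3A, 3.21% of all genes) and 2 below (LDHA and CA12, 6.2% of all genes). The median over the members was -0.16, beside -0.03 over all genes. Of the 24 glycolysis genes 19 had a negative difference and of the 14 hypoxia-induced and HIF genes 8, while 45.7% of all genes had a positive one.

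**Figure D3:**
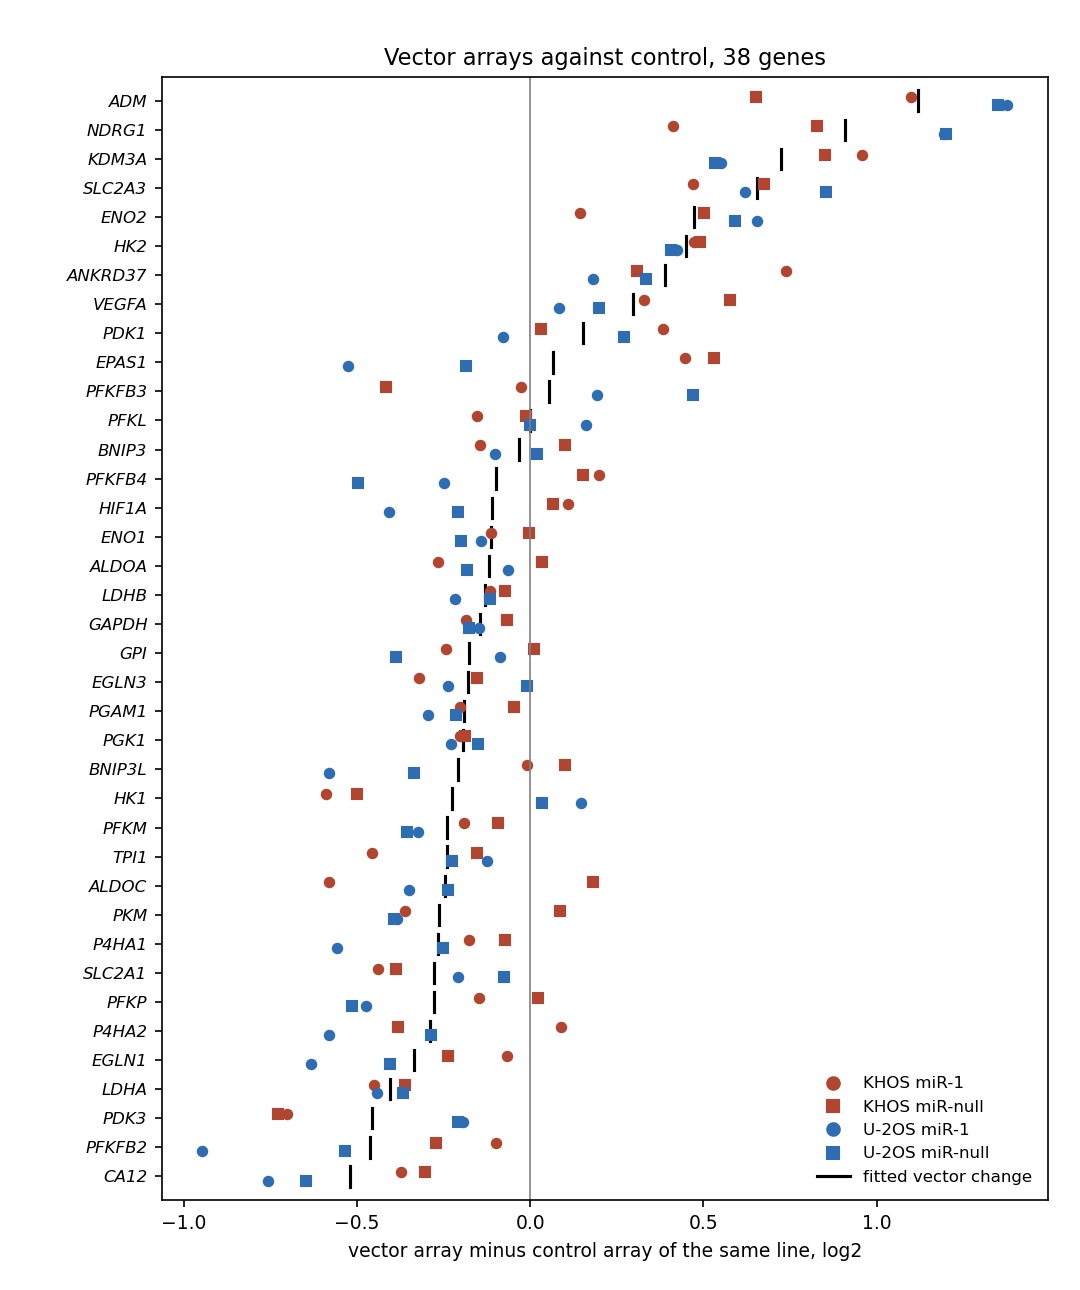
Log2 difference of each vector array from the control array of its line (x axis) for the 38 genes, with 4 points per gene, 1 for each line and vector. Black bars mark the fitted vector change, from 1.12 for ADM to -0.52 for CA12, and the 8 topmost genes have all 4 points to the right of 0.

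The members above control in every vector array included glycolysis genes and hypoxia-induced genes, and so did those below it. Of the hypoxia-induced genes, CA12, EGLN1, EGLN3 and P4HA1 lay below control in every vector array. The 14 hypoxia-induced and HIF genes had a median of -0.07. ADM differed by 1.12 ± 0.18 (2.17-fold, adjusted p = 0.0515), with 0.88 in KHOS and 1.36 in U-2OS. NDRG1 differed by 0.91 ± 0.19 (adjusted p = 0.0659), with 0.62 and 1.20. KDM3A read 9.26, 9.16 and 8.30 in KHOS, beside 9.53, 9.52 and 8.98 in U-2OS, a difference of 0.72 ± 0.14 (adjusted p = 0.0627). In each of these genes both vector arrays lay above the control of their line, and in U-2OS the miR-1 and miR-null arrays nearly coincided. SLC2A3 differed by 0.66 ± 0.14 (adjusted p = 0.0716), ENO2 by 0.47 ± 0.16 and HK2 by 0.45 ± 0.12. ANKRD37, a small ankyrin-repeat gene induced by HIF-1, read 8.46, 8.03 and 7.72 in KHOS, beside 8.01, 8.16 and 7.83 in U-2OS, a difference of 0.39 ± 0.17. VEGFA differed by 0.30 ± 0.15, with 0.45 in KHOS and 0.14 in U-2OS, and its 4 probe sets gave 0.30 to 1.004. Its probe set with the next highest mean was not above control in every vector array. In U-2OS that probe set read 8.06 with miR-1 and 8.22 in the control. The HK2 value depends on the probe set, and its others above the level for testing went the other way, at -0.62 and -0.17.

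The 15 genes below control in every vector array ran from CA12 down in size to ENO1. CA12 differed by -0.52 ± 0.14 (adjusted p = 0.113), with -0.34 in KHOS and -0.70 in U-2OS. LDHA, which makes lactate, read 13.43, 13.51 and 13.88 in KHOS, beside 13.68, 13.76 and 14.13 in U-2OS, a difference of -0.40 ± 0.12 (adjusted p = 0.138). The shift was nearly the same in both lines, at -0.41 and -0.40. PDK3 read 7.26, 7.24 and 7.96 in KHOS, beside 6.996, 6.98 and 7.19 in U-2OS, a difference of -0.46 ± 0.15. PFKFB2, which reached the level for testing only through U-2OS, differed by -0.46 ± 0.19, with -0.18 in KHOS and -0.74 in U-2OS. EGLN1 (-0.34), EGLN3 (-0.18), SLC2A1 (-0.28), P4HA1 (-0.26), TPI1 (-0.24), PFKM (-0.24), PGK1 (-0.19), PGAM1 (-0.19), GAPDH (-0.14), LDHB (-0.13) and ENO1 (-0.11) made up the rest. Other probe sets of EGLN1 above the level for testing gave 0.03 and 0.20. Of the 19 members with more than 1 such probe set, 7 had both signs in this comparison. SLC2A1 and SLC2A3, the transporters that divided the lines, had differences of opposite sign here. HIF1A itself differed by -0.11 with an interval of -0.46 to 0.24. The calls turned on the array left out. Leaving out a control leaves the vector arrays of the other line against its single control, which is assumed to vary like the other arrays. Without the KHOS control, SLC2A3 (0.74), ADM (1.36), NDRG1 (1.20) and CA12 (-0.70) passed. Without the U-2OS control KDM3A (0.91) and PDK3 (-0.71) passed. PFKFB2 (-0.74) also passed without the KHOS control, but it is not read as a call.

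Among the related genes, 1 passed in this comparison. DDIT4, also called REDD1, a stress-induced inhibitor of mTOR signalling and a HIF target, read 11.28, 11.50 and 9.88 in KHOS, beside 12.58, 12.68 and 11.49 in U-2OS, a difference of 1.33 ± 0.15 (adjusted p = 0.0179). Both vector arrays of each line lay above its control, and the miR-1 and miR-null arrays were close. Its call was lost on leaving out KHOS miR-1 (adjusted p = 0.102), KHOS miR-null (0.0902) or U-2OS miR-null (0.122). No other gene passed of the 36 HIF targets. Of 28 other glycolysis and pyruvate genes 0 passed, with a median of -0.15, and of the 13 genes listed as regulators 0 passed.

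The promoters of the members at least 1.2-fold above control in all 4 vector arrays were read for the letters of the HIF core. The motifs searched were ACGTG and GCGTG on either strand, which appear as CACGT and CACGC when they lie on the other strand, and overlapping matches were allowed. The window was the 250 bases before the RefSeq start (GRCh38.p14), the first entry where a gene had several. ADM, HK2 and KDM3A are shown because they are the 3 of these genes whose promoters were given, with every match in capitals, on the plus strand at chr11:10304823-10305072, chr2:74833877-74834126 and chr2:86441121-86441370.
ADM: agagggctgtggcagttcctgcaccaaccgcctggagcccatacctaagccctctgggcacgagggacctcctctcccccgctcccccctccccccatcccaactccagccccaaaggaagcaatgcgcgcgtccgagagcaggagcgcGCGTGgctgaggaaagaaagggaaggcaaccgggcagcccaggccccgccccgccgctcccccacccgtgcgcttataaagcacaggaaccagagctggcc
HK2: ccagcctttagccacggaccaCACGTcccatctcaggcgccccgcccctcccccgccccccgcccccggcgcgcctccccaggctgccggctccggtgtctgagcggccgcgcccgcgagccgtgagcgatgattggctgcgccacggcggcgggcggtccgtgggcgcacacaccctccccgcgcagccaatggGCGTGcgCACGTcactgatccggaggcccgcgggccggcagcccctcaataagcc
KDM3A: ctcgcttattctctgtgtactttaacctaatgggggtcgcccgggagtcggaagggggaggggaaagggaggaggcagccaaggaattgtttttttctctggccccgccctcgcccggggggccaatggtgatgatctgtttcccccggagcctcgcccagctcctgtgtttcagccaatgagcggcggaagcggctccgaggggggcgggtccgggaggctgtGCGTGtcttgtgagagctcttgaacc

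ADM and KDM3A each held 1 match and HK2 held 3. Of all promoter windows given, 43.2% held at least 1 match, 15172 of 35116, so a match is common. Of the 57 windows of 33 members 34 held a match, which is 59.6%. All 7 windows of the 5 members above control in every vector array with an entry held at least 1, among them ENO2 and ANKRD37, as did 11 of the 22 windows of members below control in every vector array. Windows that share a gene overlap, and a match describes letters only. The groups above and below control were sorted by direction in a comparison where no member passed, and their shares were not tested. NDRG1, PFKFB2, VEGFA, SLC2A3 and BNIP3L had no entry.

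The miR-null arrays alone were also set against control. By limma 0 of 12958 genes passed, a share of 0%, and 1263 had an unadjusted p below 0.05. NDRG1 differed by 1.02 ± 0.23, ADM by 1.002 ± 0.22, SLC2A3 by 0.76 ± 0.17 and KDM3A by 0.69 ± 0.19. In both lines 7 members were at least 1.2-fold above control with miR-null, where 5.73% of all genes were, and 4 were at least 1.2-fold below it (LDHA, P4HA2, CA12 and PFKFB2), where 8.11% were. PFKFB3 alone passed that margin in opposite directions, where 6.38% of all genes did. The 7 were NDRG1, ADM, HK2, SLC2A3, KDM3A, ENO2 and ANKRD37. These values share the control arrays with the comparison above.

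The study's own question was what miR-1 changed, and the miR-1 arrays were set here against the miR-null vector. Between miR-1 and miR-null no member passed, nor did any gene: 0 of 12958 by limma, a share of 0%, with 78 at an unadjusted p below 0.05. Among members the differences ran from -0.44 ± 0.21 for ALDOC to 0.24 ± 0.22 for ADM. The median over the members was -0.07, beside -0.04 over all genes, with 27 of the 38 below 0, while 38.1% of all genes were above 0. The typical 95% interval reached 0.47 to either side (log2), and a p that misses the threshold does not show that a gene was unchanged. The Mann-Whitney test named in the deposited design text cannot go below an exact p of 0.333 with 2 arrays against 2.

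No member was at least 1.2-fold higher in both lines with miR-1 (0.903% of all genes were) and none was at least 1.2-fold lower in both (2.2%). In 3 members the lines moved in opposite directions by that margin, where 3.42% of all genes did. P4HA2 differed by 0.47 in KHOS and by -0.29 in U-2OS, PFKFB3 by 0.39 and -0.28, and PDK1 by 0.35 and -0.35. PDK1 read 8.74, 8.39 and 8.36 in KHOS, beside 7.999, 8.35 and 8.08 in U-2OS, so the miR-1 array was the highest of KHOS and the lowest of U-2OS. PFKFB3 read 9.23, 8.84 and 9.25 in KHOS, beside 9.18, 9.46 and 8.99 in U-2OS, so the miR-null array was the lowest of KHOS and the highest of U-2OS. ALDOC had -0.76 in KHOS and -0.11 in U-2OS, PKM -0.45 and 0.01, and NDRG1 -0.42 and -0.01. These values rest on 1 array against 1 in each line and carry no test.

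**Figure D4:**
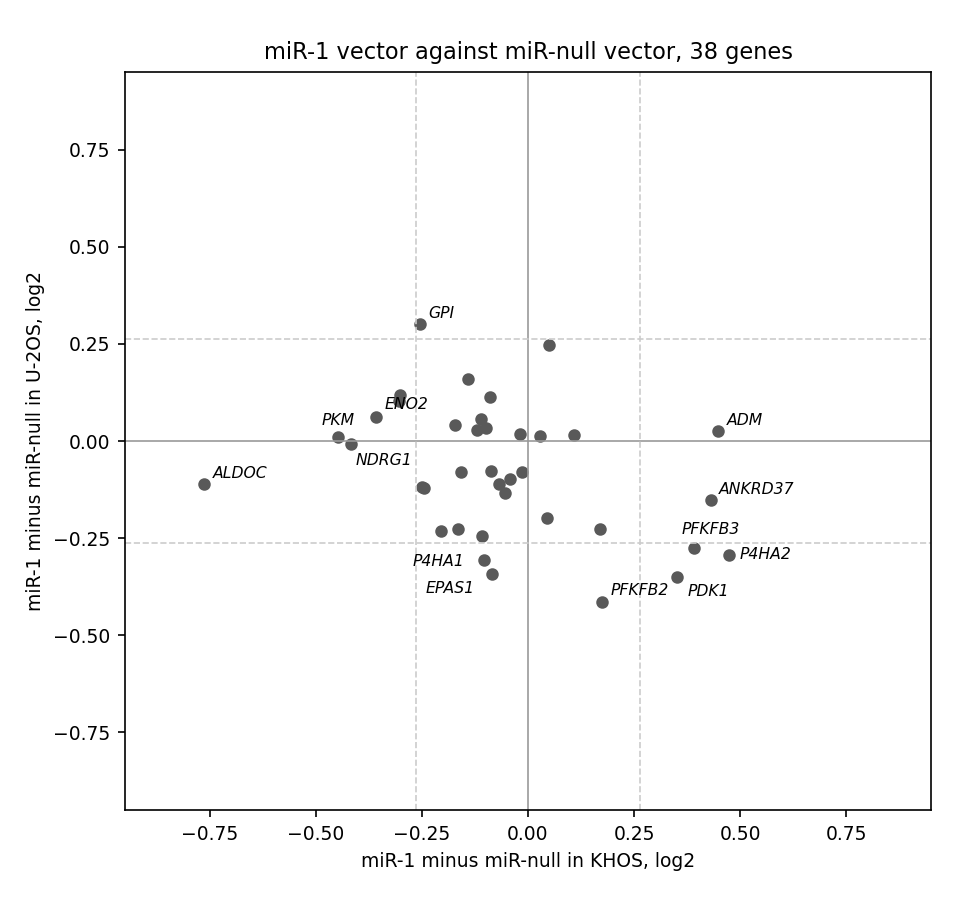
Log2 difference, miR-1 minus miR-null, in KHOS (x axis) and U-2OS (y axis), 1 point per gene for the 38 genes, with dashed lines at 1.2-fold. No gene lies past 1.2-fold on the same side in both lines, and P4HA2, PFKFB3 and PDK1 lie past it on opposite sides.

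Whether the lines differed in their change was tested directly. For the vectors, the spread comes from the miR-1 and miR-null arrays within a line, and the control arrays' own variation is unmeasured. For the vector arrays against control 0 of 38 members passed, beside 2.28% of all genes (296 of 12958). EPAS1 came nearest, with 0.49 in KHOS and -0.36 in U-2OS, a difference of 0.84 ± 0.27 (adjusted p = 0.13), followed by HK1 with -0.55 and 0.09, a difference of -0.64 ± 0.23 (adjusted p = 0.165). EPAS1 read 8.71, 8.79 and 8.26 in KHOS, beside 8.59, 8.94 and 9.12 in U-2OS, so the control was the lowest array of KHOS and the highest of U-2OS. Without the U-2OS miR-null array EPAS1 passed. For miR-1, the other arrays of a line were its miR-null and control arrays, so a vector change enters both the difference and its spread. In that comparison 0 of 12958 genes passed by limma, a share of 0%, with 276 at an unadjusted p below 0.05. Members ran from -0.60 for NDRG1 to 0.72 for P4HA2. NDRG1 in U-2OS read 11.75 with miR-1, 11.76 with miR-null and 10.56 in the control. The typical 95% interval for this miR-1 comparison reached 0.91 to either side, so the count of 0 does not show that the lines responded alike.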

How the data were processed

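Total RNA from 6 samples was hybridized to Affymetrix U133 Plus 2.0 arrays. The authors made log2 expression values with RMA in Qlucore 3.2, per the deposited design text; RMA also stands in the submitters' processing notes. Values from 2.83 to 14.90 were deposited and used as they stand; arrays have no read depth, and their number limits the precision. Of 54675 probe sets, 62 were controls, 41091 had 1 gene symbol, 1801 several and 11721 none; 41037 matched a RefSeq gene table. Each gene took its probe set with the highest mean, and genes with a mean of at least 5.11, the median of all probe sets, entered limma (version 3.58.1, R 4.3.3; lmFit and eBayes), with Benjamini-Hochberg adjustment over 12958 genes and a threshold of 0.05.

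The terms were line and treatment, line and vector, or a line interaction, over all 6 arrays. The cell line pairs the arrays and was kept as a block. The members, the lists and the named-gene rule (genes that passed, and the 2 largest per role) were chosen with earlier results of these data known, and so was the comparison of vector with control. Alternatives were other normalization, filters, probe sets, a trended prior, no block, fewer arrays and each array left out. The code was tested on simulated data.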

Additional observations from a re-analysis of the deposited data

Results flagged for a closer look

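BHLHE41, a clock and hypoxia-responsive transcriptional repressor among the other HIF targets, is listed because the test of the line difference itself passed. It read 7.23 with miR-1, 6.97 with miR-null and 5.73 in the control of KHOS, beside 6.60, 6.41 and 8.13 in U-2OS. The vector arrays thus lay above the control in KHOS and below it in U-2OS, and the difference between the lines in the vector change was 2.998 ± 0.27 (log2, KHOS minus U-2OS, adjusted p = 0.00448 by limma). The adjusted p was 0.0521 after quantile normalization, 0.0559 on leaving out KHOS miR-1 and 0.065 on leaving out KHOS miR-null. RUNX2, the osteoblast transcription factor, passed the same test at 3.125 ± 0.31 (adjusted p = 0.00623 by limma). It read 9.83, 9.85 and 8.98 in KHOS, beside 4.23, 4.72 and 6.74 in U-2OS, and its adjusted p was 0.0655 without KHOS miR-1 and 0.0805 without KHOS miR-null. The endothelial marker PECAM1 passed at -1.214 ± 0.23 (adjusted p = 0.0403 by limma). It read 5.69, 5.72 and 6.10 in KHOS, beside 6.46, 6.54 and 5.69 in U-2OS, and its adjusted p was 0.0735 after quantile normalization, 0.0627 over all probe sets, 0.214 without KHOS miR-1 and 0.196 without KHOS miR-null. The spread in this test comes from the miR-1 and miR-null arrays within a line, and with 1 control array per line the controls' own variation is unmeasured. No member of the glycolysis and hypoxia genes passed the same test.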

How the results depend on the processing

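Over 15 alternatives no member's call turned its direction. Between the lines, where 13 alternatives were run, 10 of 21 calls were kept under all. SLC2A1 (most specific probe set) and EGLN3 (75th percentile filter) had no value under 1 and were kept otherwise. PFKFB2 is not read as a call. It is counted in the 21, and among the members lower for vector minus control without the KHOS control. KDM3A's call was lost under 9, and the cause was not tested. The number of genes that passed was 7103 for KHOS minus U-2OS, 4713 with a filter at the 75th percentile (fewer genes tested), 14541 over all probe sets and 4471 to 8765 with each array left out; members higher were then 5 to 9 and lower 9 to 13, and 9 lower without either miR-null array. The members' median there was -0.40 after quantile normalization and -0.25 to -0.21 with an array left out. For vector minus control, 62 genes passed, and 133 after quantile normalization, 40 after centring, 103 with no filter, 386 with the 75th percentile filter, 208 over all probe sets, 144 with the most specific probe set and 588 with a trended prior. With each array left out the count was 0 to 1931, 1931 without the KHOS control, 520 without the U-2OS control, 21 without U-2OS miR-1 and 0 without any of the other 3; members higher were 0 to 3 and lower 0 to 2, and the median -0.19 to -0.12. Members higher were 1 after quantile normalization (KDM3A), 1 with no filter, over all probe sets or with the most specific probe set (ADM), 4 with the 75th percentile filter and 4 with the trended prior, which also gave 1 lower (LDHA). Leaving the pairing by cell line out of the fit (no replicate block) gave 0 genes for vector minus control. For miR-null minus control, 0 genes passed, 25 with the trended prior, 13 with only the 4 arrays compared and 0 to 1346 with an array left out, 1346 without the KHOS control and 518 without the U-2OS control, with 0 to 3 members higher. For miR-1 minus miR-null, 0 passed under every alternative. For the line difference in the vector change, 296 passed, 15 after quantile normalization, 553 with the 75th percentile filter, 863 with the trended prior, which also called 1 member lower (HK1), and 6 to 1531 with an array left out, 1531 without U-2OS miR-null, with 0 to 1 members higher. That difference could not be fitted without a control array, nor the one in the miR-1 change without a miR-1 array. Under the most specific probe set, KHOS minus U-2OS turned to 0.86 for ERO1A and to -0.14 for TCEA1. The Mann-Whitney test of the design text cannot go below an exact p of 0.1 with 3 arrays against 3, or 0.133 with 4 against 2. A single array per line and treatment, near-floor values such as PFKFB2 in KHOS and near-top values such as GAPDH limit these comparisons.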

Other observations

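STC2, a secreted stanniocalcin, read 10.10 with miR-1, 10.05 with miR-null and 9.03 in the control of KHOS, against 5.03, 5.09 and 4.38 in U-2OS. In both lines the control was the lowest array, and the vector arrays differed from it by 0.86 ± 0.14 (log2, SE, adjusted p = 0.0515 by limma), which did not pass. The U-2OS values lay below the level of 5.11 used for testing, where differences are compressed. Among the mesenchymal markers, all 4 tested (VIM, COL1A1, SPARC and RUNX2) had a negative difference between vector and control, from -1.18 to -0.26, and none passed. For RUNX2 the difference between the lines in that change passed (3.125, KHOS minus U-2OS), with the vector arrays above the control in KHOS and below it in U-2OS. The U-2OS vector arrays of RUNX2 also lay below the level of 5.11.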
